A study of Mus musculus with 9 samples.

Results

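The comparison described here is LPS + GAS against LPS, the effect of gastrodin (GAS) on hippocampal microRNAs (miRNAs) after an endotoxin challenge. It sets the read counts of 3 small RNA libraries of the LPS + GAS group against 3 of the LPS group, 6 of the 9 in the series. The fit was made on all 9 libraries and on 628 of 1448 miRNAs, those that reached 10 reads in 3 or more of the 9 libraries. All tissue was hippocampus of adult male C57BL/6J mice. Mice of the LPS group were given an intraperitoneal dose of 1 mg/kg lipopolysaccharide (LPS) from Escherichia coli 055:B5 and, by the labels, 0.12% saline. Those of the LPS + GAS group had the same dose of LPS, and 100 mg/kg GAS 1 h later by the labels, although the methods also describe both injections as concurrent. The abstract of the study instead places GAS before LPS. The order given by the labels is used below. The 3 libraries of the saline group, which had 0.9% saline and no LPS, are given beside the others as the background level. They also entered the normalization and the estimate of the spread. The labels number 3 samples in each group and do not say whether each came from a single mouse, so that p-values measure the spread between these samples. Levels are given as CPM, edgeR's read counts scaled to the library total after TMM normalization, and 3 values in a row belong to replicates 1, 2 and 3 of a group.

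A mature miRNA guides an Argonaute protein to messenger RNAs through bases 2 to 8 of its 5′ end, the seed, and lowers their translation and stability. Many miRNAs are made in one cell type, and many are cut from a shared primary transcript, so that members of a genomic cluster and the 5p and 3p arms of a precursor often share their source. LPS is the endotoxin of Gram-negative bacteria and activates Toll-like receptor signalling in microglia and blood leukocytes, for which miR-155 and miR-146a are known responders. GAS is a phenolic glucoside of the orchid Gastrodia elata. The question addressed was which hippocampal miRNAs differed when GAS followed LPS, and the answer is given below for single miRNAs, for families and clusters, and for miRNAs restricted to a tissue.

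The sequences below are those on which the description turns, with the seed in capitals. Mature sequences were the same in the deposited table and in RefSeq, and positions are those of the mature miRNA in GRCm38, counted from 1. The first set holds miRNAs known from choroid plexus epithelium, which secretes cerebrospinal fluid, and from multiciliated cells such as those of the ependyma, which lines the ventricles. MiR-204-5p (chr19:22750610-22750631, plus strand) lies in an intron of Trpm3 and miR-211-5p (chr7:64205831-64205852, plus strand) in an intron of Trpm1, and both carry the seed UCCCUUU. MiR-1298-5p (chrX:147064918-147064939) and miR-448-3p (chrX:147158281-147158302) lie in introns of Htr2c, on its strand, the gene of a serotonin receptor that is abundant in choroid plexus. MiR-34b-5p (chr9:51103610-51103632, minus strand) and miR-449a-5p (chr13:113037549-113037570, plus strand, in an intron of Cdc20b) share the seed GGCAGUG.
miR-204-5p: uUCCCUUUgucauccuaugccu
miR-211-5p: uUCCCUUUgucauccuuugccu
miR-1298-5p: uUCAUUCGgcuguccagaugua
miR-448-3p: uUGCAUAUguaggaugucccau
miR-34b-5p: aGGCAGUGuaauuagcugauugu
miR-449a-5p: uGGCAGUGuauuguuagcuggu

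The second set holds miRNAs of blood, connective tissue and inflammation, and 1 of the imprinted region of chromosome 12. MiR-451a (chr11:78073186-78073207) and miR-144-3p (chr11:78073047-78073066) are neighbours on the plus strand outside annotated genes, and miR-223-3p (chrX:96242884-96242905, plus strand) lies in an exon of F630028O10Rik. MiR-199a-5p has a copy in Dnm3os (chr1:162217844-162217866, plus strand) and another at chr9:21496537-21496559 on the minus strand, opposite an intron of Dnm2. MiR-155-5p (chr16:84714143-84714165, plus strand) lies in an exon of Mir155hg, and miR-21a-3p (chr11:86584082-86584103, minus strand) within an exon of Vmp1. MiR-127-5p (chr12:109592854-109592875, plus strand) is opposite an exon of Rtl1.
miR-451a: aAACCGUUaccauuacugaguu
miR-144-3p: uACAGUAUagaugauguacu
miR-223-3p: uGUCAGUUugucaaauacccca
miR-199a-5p: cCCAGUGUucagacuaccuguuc
miR-155-5p: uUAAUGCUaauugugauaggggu
miR-21a-3p: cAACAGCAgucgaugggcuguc
miR-127-5p: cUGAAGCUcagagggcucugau

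The libraries held 10119758 to 11457656 miRNA reads, and TMM factors ran from 0.914 to 1.19, with the highest in LPS replicate 2. Libraries within a group differed well beyond counting error. Neuron-enriched miRNAs were abundant in every library, as the tissue label implies: the summed level of 12 such miRNAs was 129146, 139813 and 156527 CPM with saline, 162552, 143719 and 165165 CPM with LPS and 135887, 167809 and 148697 CPM with LPS + GAS. The libraries stood apart in another respect. MiRNAs of choroid plexus, ependyma and other epithelia varied several-fold between libraries of the same group, with LPS + GAS replicates 1 and 3 high in the choroid plexus and ependyma lists and replicate 2 high in the epithelial lists. Results that rest on these libraries are given with and without them.

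No miRNA passed the thresholds when GAS after LPS was set against LPS alone. With edgeR's quasi-likelihood test, adjusted by Benjamini-Hochberg over 628 miRNAs, 0 (0% of those tested) combined an adjusted p of 0.05 or less with a log2 fold change beyond -1 or 1, and the lowest adjusted p was 0.600. DESeq2's Wald test and limma voom also called 0. An unadjusted p under 0.05 was reached by 23 miRNAs (3.66%), 14 higher (2.23%) and 9 lower (1.43%) in the LPS + GAS group, where the threshold alone would give 31.4. All 3 LPS + GAS libraries lay above all 3 LPS libraries for 26 miRNAs (4.14%) and below them for 28 (4.46%), together 8.60%. The log2 fold change was above 0 for 318 miRNAs (50.6%), with a median of 0.003.

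The precision differed between miRNAs. The median 95% interval of a log2 fold change reached 0.63 to either side, and the intervals of 399 miRNAs (63.5%) lay within -1 and 1, so that a 2-fold difference was outside the interval for these. A log2 fold change of at least 1 was fitted for 22 miRNAs (3.50%) and of at most -1 for 7 (1.11%), and their median standard error was 0.76, against 0.28 over all 628. For one miRNA, an exact two-sided permutation test of 3 libraries against 3 reaches p = 0.1 at the lowest. Of the 22, 11 belonged to the lists of choroid plexus and multiciliated cells. For 19 of the 22 the lowest LPS + GAS library was replicate 2, which lay within the range of the LPS libraries for 15 of them, and the groups did not overlap for 5.

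**Figure D1:**
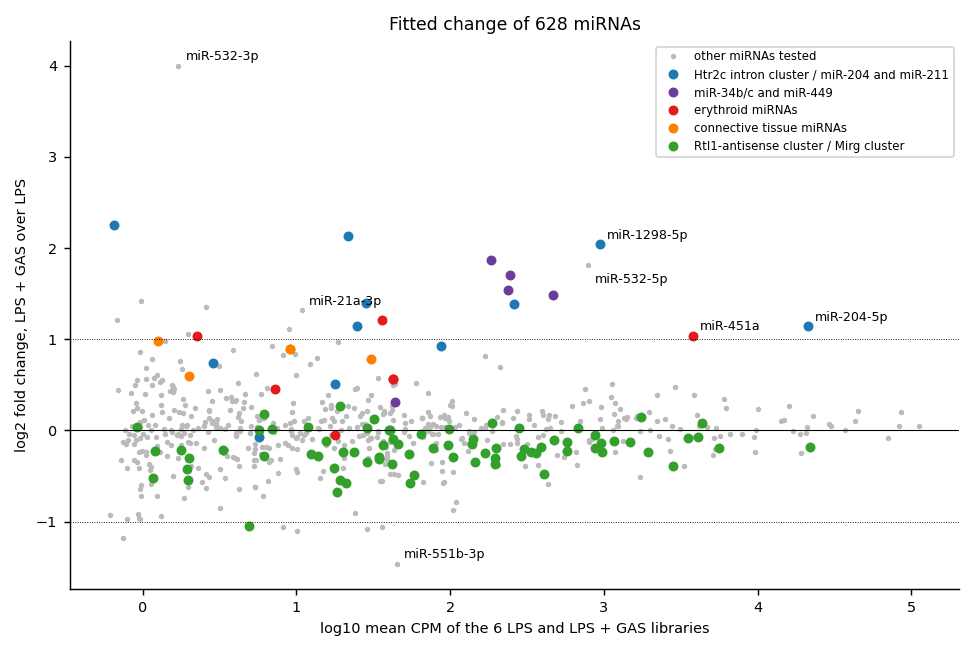
Fitted log2 fold change of LPS + GAS over LPS (vertical axis) against the mean CPM of the 6 libraries on a log10 axis for 628 miRNAs, 1 point each, with members of 5 sets of lists in colour and dotted lines at -1 and 1. Most of the abundant miRNAs lie near 0. Members of the choroid plexus and miR-34b/c lists make up 11 of the 22 miRNAs at 1 or above, and their other members lie lower, down to miR-1298-3p at -0.069.

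The largest set of higher values was that of choroid plexus. The Htr2c intron cluster, of which 8 of 10 listed miRNAs were tested, had a log2 fold change above 0 in 7 of 8 members and a median of 1.40, beside 318 of 628 and 0.003 over all miRNAs. MiR-1298-5p, its most abundant member, was at 761, 258 and 81.8 CPM with LPS and at 3053, 105 and 1377 CPM with LPS + GAS. Replicates 1 and 3 of the LPS + GAS group were the highest 2 of the 6 libraries, while replicate 2 was lower than 2 of the 3 LPS libraries. Its log2 fold change was 2.04 ± 1.27 (SE), with a 95% interval of -0.81 to 4.90 and an adjusted p of 0.903 by edgeR. In the saline libraries miR-1298-5p was at 1568, 162 and 127 CPM, so that a single library of each group, or a pair in the LPS + GAS group, held most of its reads.

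Other members of the cluster had a like order of libraries. MiR-448-3p was at 19.4, 2.99 and 1.71 CPM with LPS and at 67.7, 1.62 and 36.1 CPM with LPS + GAS, a log2 fold change of 2.13 ± 1.38 (SE). MiR-1264-5p was at 255, 124 and 51.7 CPM and 614, 55.3 and 461 CPM, and its other arm miR-1264-3p at 28.2, 12.6 and 5.63 CPM and 74.8, 5.87 and 42.0 CPM, in the same order of groups. Both arms had log2 fold changes near 1.4 (1.39 and 1.40). Replicate 2 of the LPS + GAS group was at or near the bottom for each of these miRNAs, and replicate 1 at the top. MiR-764-5p, miR-448-5p and miR-1912-3p had log2 fold changes of 0.51, 0.74 and 2.26, the last from at most 17 reads in a library. MiR-1298-3p, at 5.67, 6.06 and 5.73 CPM with LPS and 9.80, 1.31 and 5.49 CPM with LPS + GAS, had -0.069 and was the exception in the cluster. None of the 8 had groups that did not overlap.

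MiR-204-5p, the choroid plexus and pigment epithelium miRNA of Trpm3, was among the abundant miRNAs of these libraries. It reached 20913, 9478 and 9098 CPM with LPS, 51934, 11645 and 23721 CPM with LPS + GAS and 26893, 8994 and 10325 CPM with saline. LPS + GAS replicate 1 held the highest level of the 9 libraries, and replicate 2 lay between LPS replicates 1 and 2. The log2 fold change was 1.14 ± 0.60 (SE), with an interval of -0.19 to 2.48. MiR-211-5p, which has the same seed but another host gene and chromosome, had levels of 11.7, 20.5 and 14.3 CPM and 55.1, 15.8 and 32.1 CPM in the same groups and a log2 fold change of 1.14 ± 0.58 (SE). The other arm, miR-204-3p, was at 106, 50.3 and 24.1 CPM and 107, 59.1 and 178 CPM, with 0.93. All 3 tested members were above 0 and in all 3 the groups overlapped.

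The miRNAs of multiciliated cells gave the highest list median. MiR-34b and miR-34c are cut from one primary transcript, and with miR-449 they are required for the motile cilia of ependyma and airway. The 5 tested members of 9 listed all had log2 fold changes above 0, with a median of 1.54. MiR-34b-5p was at 136, 49.4 and 52.0 CPM with LPS, 517, 60.2 and 290.4 CPM with LPS + GAS and 279, 39.8 and 69.9 CPM with saline, and had a log2 fold change of 1.87 ± 0.86 (SE) with an unadjusted p of 0.0565 in edgeR. MiR-34c-5p, which shares its seed, was at 189, 88.6 and 69.6 CPM and 725, 77.6 and 326 CPM in the LPS and LPS + GAS groups, with 1.70. Replicate 2 of the LPS + GAS group again lay within the LPS range for both.

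MiR-34b-3p and miR-34c-3p, the opposite arms, had log2 fold changes of 1.49 and 1.54. MiR-449a-5p differed from the rest of the list. It was at 38.5, 31.2 and 47.2 CPM with LPS and at 47.7, 50.2 and 47.8 CPM with LPS + GAS, so that the groups did not overlap, but the log2 fold change was only 0.32 ± 0.20 (SE) and the saline libraries, at 52.2, 39.9 and 49.7 CPM, covered the LPS + GAS range and overlapped the LPS range. Together with miR-34a-5p, which neurons and glia also express, these seed relatives gave 4 of 4 above 0 and a median of 1.09.

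Summed over the members of each list, the libraries can be compared directly. The Htr2c intron cluster came to 2085, 264 and 326 CPM in saline, 1091, 425 and 154 CPM in LPS and 3860.0, 174 and 1951 CPM in LPS + GAS libraries. For miR-204 and miR-211 the sums were 27037, 9045 and 10391 CPM, 21031, 9549 and 9137 CPM and 52096, 11720.3 and 23931 CPM, and for miR-34b/c and miR-449 they were 1609, 301 and 529 CPM, 963, 425 and 418 CPM and 3291, 443 and 1541 CPM, in the same order of groups. Replicate 1 was the highest library of its group in all 3 lists and in each of the 3 groups. The saline libraries, with neither LPS nor GAS, spanned at least as wide a range as the LPS libraries in all 3 lists.

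Without LPS + GAS replicate 1 the medians were 0.62 for the Htr2c cluster, 0.62 for miR-204 and miR-211 and 0.74 for miR-34b/c and miR-449. Without LPS replicate 1 they were 2.13, 1.62 and 2.21. Without LPS + GAS replicate 2 they were 1.91, 1.49 and 1.99, and without LPS + GAS replicate 3 they were 1.23, 1.19 and 1.63. No sign of a list median turned in these fits. In LPS against saline, which shares the LPS libraries with the main comparison, the medians were -0.54, -0.23 and -0.38, and in LPS + GAS against saline they were 0.86, 0.84 and 1.14. The share of choroid plexus and ventricle lining in each dissected piece is not recorded here, and its part in these differences was not tested. In tissue libraries such as these, fewer cells of a type and less RNA per cell cannot be told apart.

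**Figure D2:**
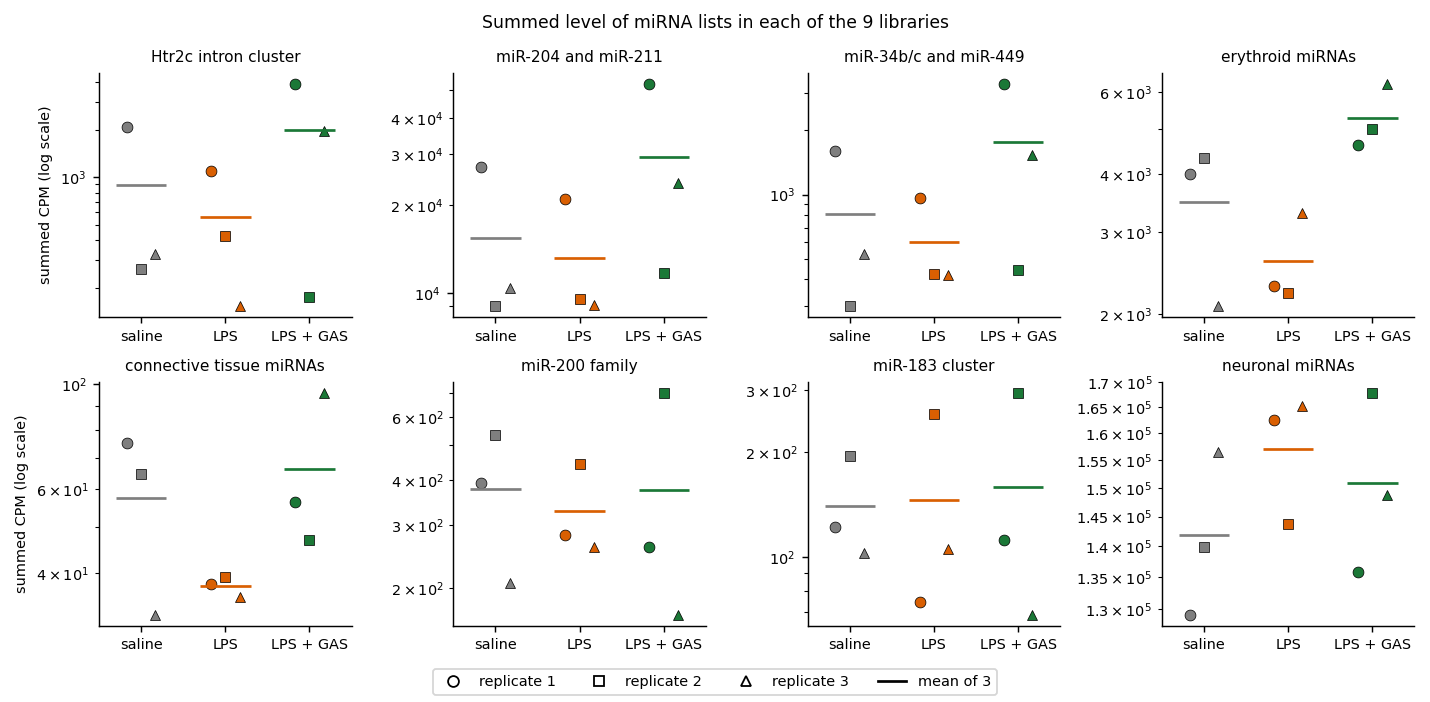
Summed CPM (log axis) of 8 miRNA lists by group, saline, LPS or LPS + GAS, with 1 point per library, its shape giving the replicate number, and a line at the mean of 3. In the first 3 lists replicate 1 is the highest library of every group, whereas in the miR-200 and miR-183 lists it is replicate 2; the LPS and LPS + GAS libraries are apart for the erythroid and connective tissue lists.

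Epithelial miRNAs outside the choroid plexus lists had another pattern. The miR-200 family is known for keeping epithelial cells from mesenchymal change, and the miR-183 cluster for sensory and epithelial cells. The 7 tested miR-200 members summed to 282, 443 and 261 CPM with LPS, 261, 700.5 and 168 CPM with LPS + GAS and 393, 535 and 206 CPM with saline, and the 3 of the miR-183 cluster to 74.8, 258 and 106 CPM, 112, 295 and 68.7 CPM and 122, 195 and 103 CPM. Replicate 2 was the highest library of its group in all 3 groups for both lists. MiR-429-3p was the most abundant of the miR-200 family, with 184, 257 and 168 CPM and 161, 445 and 105 CPM in the LPS and LPS + GAS groups, and miR-183-5p led its cluster with 47.6, 155 and 63.8 CPM and 63.2, 190.0 and 39.2 CPM.

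The comparison of groups gave no direction for these lists. The miR-200 family was above 0 in 3 of 7 members with a median of -0.063, and the miR-183 cluster in 2 of 3 with 0.13. Leaving out LPS + GAS replicate 2 moved the medians to -0.68 and -0.80, and leaving out LPS replicate 2 moved that of the miR-200 family to 0.52. The library that was lowest for choroid plexus and ciliated miRNAs among the LPS + GAS libraries, replicate 2, was therefore the highest for miR-200 and miR-183.

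**Figure D3:**
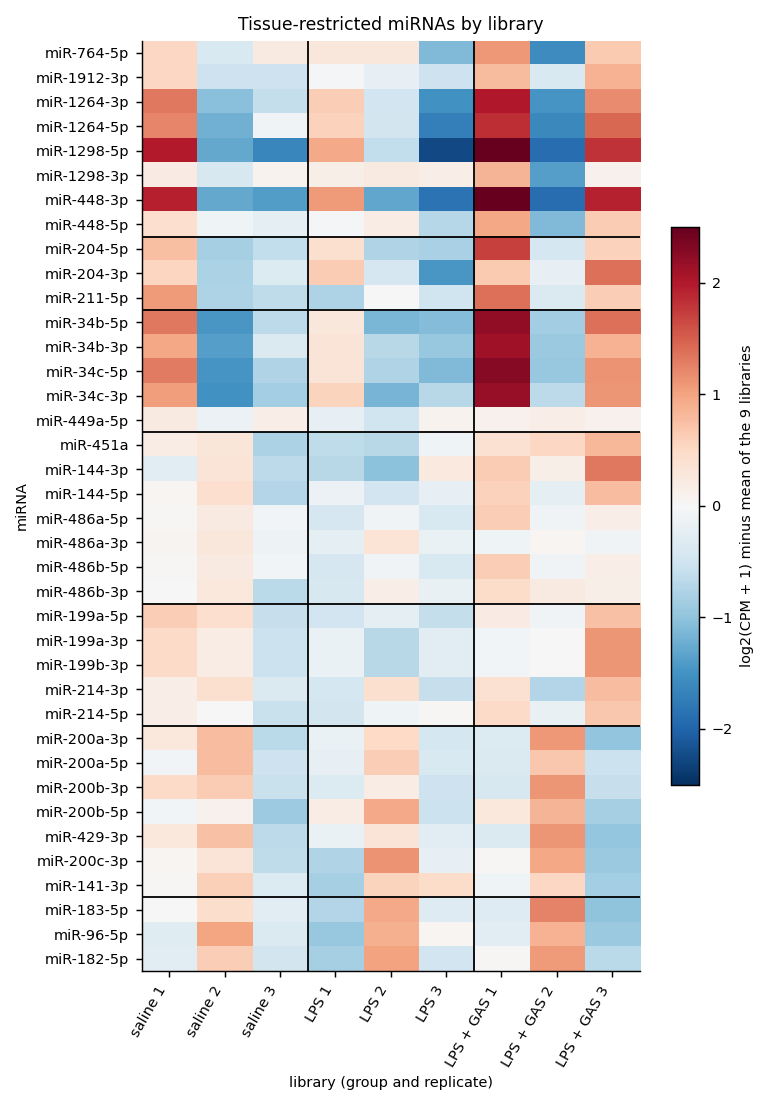
Level of each tested member of 7 tissue-restricted lists in the 9 libraries (columns), as log2(CPM + 1) minus the mean of the 9, red above and blue below; black lines part the lists and groups. LPS + GAS replicates 1 and 3 are red for the choroid plexus and miR-34b/c members and replicate 2 for miR-200 and miR-183, while miR-451a is red in all 3 LPS + GAS libraries.

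Red blood cell miRNAs were higher in every LPS + GAS library than in any LPS library when summed, but miR-451a made up most of that sum. Of the 7 tested members, 1 was higher without overlap, beside 26 of all 628 miRNAs (4.14%). MiR-451a, which is cut by Argonaute 2 and not by Dicer and makes up much of the miRNA of red cells, was at 2197, 2095 and 3173 CPM with LPS and at 4427, 4866 and 6049 CPM with LPS + GAS. The lowest LPS + GAS library was above the highest LPS library. Its log2 fold change was 1.04 ± 0.29 (SE), with an interval of 0.39 to 1.69, an unadjusted p of 0.00548 and an adjusted p of 0.903 in edgeR. In the saline libraries miR-451a was at 3871, 4178 and 1966 CPM, a range that reached from below the lowest LPS library to near the lowest LPS + GAS library. Over the alternatives the adjusted p ran from 0.157 to 0.996.

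MiR-144-3p, from the same primary transcript as miR-451a, was at 17.5, 13.8 and 34.3 CPM with LPS and 45.7, 32.1 and 73.6 CPM with LPS + GAS. LPS replicate 3, at the top of its group, overlapped LPS + GAS replicate 2, and the log2 fold change was 1.21 ± 0.43 (SE). MiR-144-5p gave 1.04 at about 2 CPM. MiR-486a-5p and miR-486b-5p, from the Ank1 locus, have the same mature sequence and the same counts, 31.5, 39.5 and 32.3 CPM and 65.3, 39.4 and 47.5 CPM, and a log2 fold change of 0.56 ± 0.22 (SE). MiR-486a-3p, at -0.055, was the single member below 0, and miR-486b-3p had 0.46. The list, 6 of 7 above 0 with 6 distinct sequences, had a median of 0.56. Its sums were 4009, 4347 and 2085 CPM with saline, 2299, 2220.0 and 3296 CPM with LPS and 4633, 5006 and 6247 CPM with LPS + GAS. Leaving out LPS + GAS replicate 1 gave a median of 0.35, and leaving out LPS + GAS replicate 2 gave 0.71. How much blood remained in each piece of tissue is not recorded, and its part in this difference was not tested.

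Leukocyte miRNAs were mixed. MiR-223-3p, of neutrophils and monocytes, was at 3.78, 5.90 and 7.24 CPM with LPS and 15, 7.38 and 14.2 CPM with LPS + GAS, without overlap but with replicate 2 only just above the LPS range. It had a log2 fold change of 1.11 ± 0.41 (SE) and an adjusted p of 0.903 by edgeR, and the saline libraries ranged over 11.1, 6.90 and 4.03 CPM. MiR-142a-3p and miR-142a-5p, which all blood-derived cells and microglia make, gave 0.23 and 0.31 with overlapping groups. MiR-150-5p, known from lymphocytes, was at 5045, 2547 and 6182 CPM and 5548, 5006 and 3622 CPM, with 0.042. Its direction turned when LPS replicate 2, LPS + GAS replicate 1 or LPS + GAS replicate 2 was left out. Its mean over the 6 libraries was 4658 CPM, beside 15.3 CPM for miR-142a-3p and 14.7 CPM for miR-142a-5p. The cell source of miR-150-5p in this tissue was not tested. Over the 5 tested members the median was 0.23, with 4 of 5 above 0. It was 0.000996 with 3 of 5 above 0 without LPS replicate 2, 0.10 without LPS + GAS replicate 1 and 0.48 without LPS replicate 3.

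Among inflammation miRNAs, both arms of miR-21a, miR-155-5p and miR-146 were tested. MiR-21a-3p, the less abundant arm of a precursor that NF-kB and STAT3 induce, was at 2.01, 2.12 and 1.51 CPM with saline, 5.67, 5.90 and 7.14 CPM with LPS and 20.9, 15.6 and 10.1 CPM with LPS + GAS. The 3 groups did not overlap. The log2 fold change for LPS + GAS over LPS was 1.32 ± 0.28 (SE), with an interval of 0.69 to 1.94. Its unadjusted p was 0.000956 by edgeR. The adjusted p was 0.600 by edgeR, 0.0525 by DESeq2 and 0.955 by limma voom. Over the alternatives the adjusted p ran from 0.0525 to 0.996, the highest by edgeR without LPS replicate 2. In LPS against saline the log2 fold change was 1.72. Against saline, the LPS + GAS libraries were higher by 3.04, with an adjusted p of 0.00151 by edgeR, the 1 miRNA called in that comparison (0.159% of 628), and LPS against saline called 0 (0%).

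MiR-21a-5p, the abundant arm, had another pattern. It was at 1521, 1395 and 795 CPM, 1155, 649.9 and 999 CPM and 1566, 1333 and 1095 CPM in saline, LPS and LPS + GAS libraries, with 0.51 ± 0.29 (SE) for LPS + GAS over LPS and -0.40 for LPS over saline. For 1000 reads of the 5p arm there were 1.32, 1.52 and 1.90 reads of the 3p arm with saline, 4.91, 9.08 and 7.15 with LPS and 13.3, 11.7 and 9.23 with LPS + GAS. LPS replicate 2 and LPS + GAS replicate 3 were close in this ratio, although the groups did not overlap.

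MiR-155-5p, a microglial and macrophage response to endotoxin, was at 5.57, 4.15 and 8.05 CPM with LPS, 11.9, 10.1 and 9.54 CPM with LPS + GAS and 6.40, 3.18 and 7.56 CPM with saline. All LPS + GAS libraries lay above the others, and the log2 fold change was 0.83 ± 0.34 (SE) with an adjusted p of 0.903 in edgeR. LPS over saline gave 0.052. MiR-146a-5p and miR-146b-5p, which restrain Toll-like receptor signalling, had 0.17 and -0.14 with overlapping groups. The list was above 0 in 4 of 5 members with a median of 0.51. The summed level of the erythroid list, mostly miR-451a, also separated the LPS and LPS + GAS groups. Its part in the values of miR-21a-3p, miR-155-5p and miR-223-3p was not tested.

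Connective tissue miRNAs were low in these libraries but did not overlap between the groups when summed, at 37.9, 39.2 and 35.5 CPM with LPS and 56.3, 46.9 and 95.8 CPM with LPS + GAS. MiR-214 and a copy of miR-199a come from Dnm3os, a transcript of mesenchyme, and both miRNAs are found in the meninges and in vessel walls. MiR-199a-5p was at 21.6, 25.9 and 19.8 CPM and 35.7, 28.8 and 51.4 CPM, with a log2 fold change of 0.78 ± 0.33 (SE) and an unadjusted p of 0.0417 by edgeR. The saline libraries, at 47.5, 41.6 and 20.2 CPM, overlapped both groups. MiR-199a-3p and miR-199b-3p share a mature sequence, so that their counts are one measurement, 7.36, 4.82 and 6.84 CPM and 8.03, 8.29 and 19.1 CPM, with 0.90. MiR-214-3p and miR-214-5p gave 0.59 and 0.98, with overlap. All 5 tested rows were above 0, with a median of 0.90, which dropped to 0.39 without LPS + GAS replicate 3.

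Vessels gave smaller values. MiR-126a-3p, of endothelium, was at 13542, 12998 and 16098 CPM with LPS and 15648, 15587 and 14956 CPM with LPS + GAS, a log2 fold change of 0.12, while miR-126a-5p gave -0.27. MiR-143-3p and miR-145a-5p, of smooth muscle, had 0.39 and 0.27, and the vascular list was above 0 in 4 of 5 members with a median of 0.27, which was 0.082 without LPS replicate 1 and 0.11 without LPS + GAS replicate 1. Muscle and liver and gut lists had medians of 0.06 and 0.12. MiR-122-5p, of hepatocytes, was at 9.26, 8.47 and 10.1 CPM and 8.31, 11.9 and 9.63 CPM. MiR-122-3p alone was without overlap in that list, at 0.55 and about 1 CPM.

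The Hox cluster miRNAs, of hindbrain and spinal cord, were low, and 2 of 6 were tested. MiR-10a-5p was at 8.16, 9.14 and 12.4 CPM with LPS and 15.2, 22.2 and 14.3 CPM with LPS + GAS, without overlap, and had a log2 fold change of 0.80 ± 0.26 (SE) and an unadjusted p of 0.0115 by edgeR. MiR-10b-5p, which has the same seed, was at 6.07, 3.66 and 11.3 CPM and 6.44, 18.8 and 12.1 CPM, with 0.84 and overlap. LPS + GAS replicate 2 was the highest library for both.

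**Figure D4:**
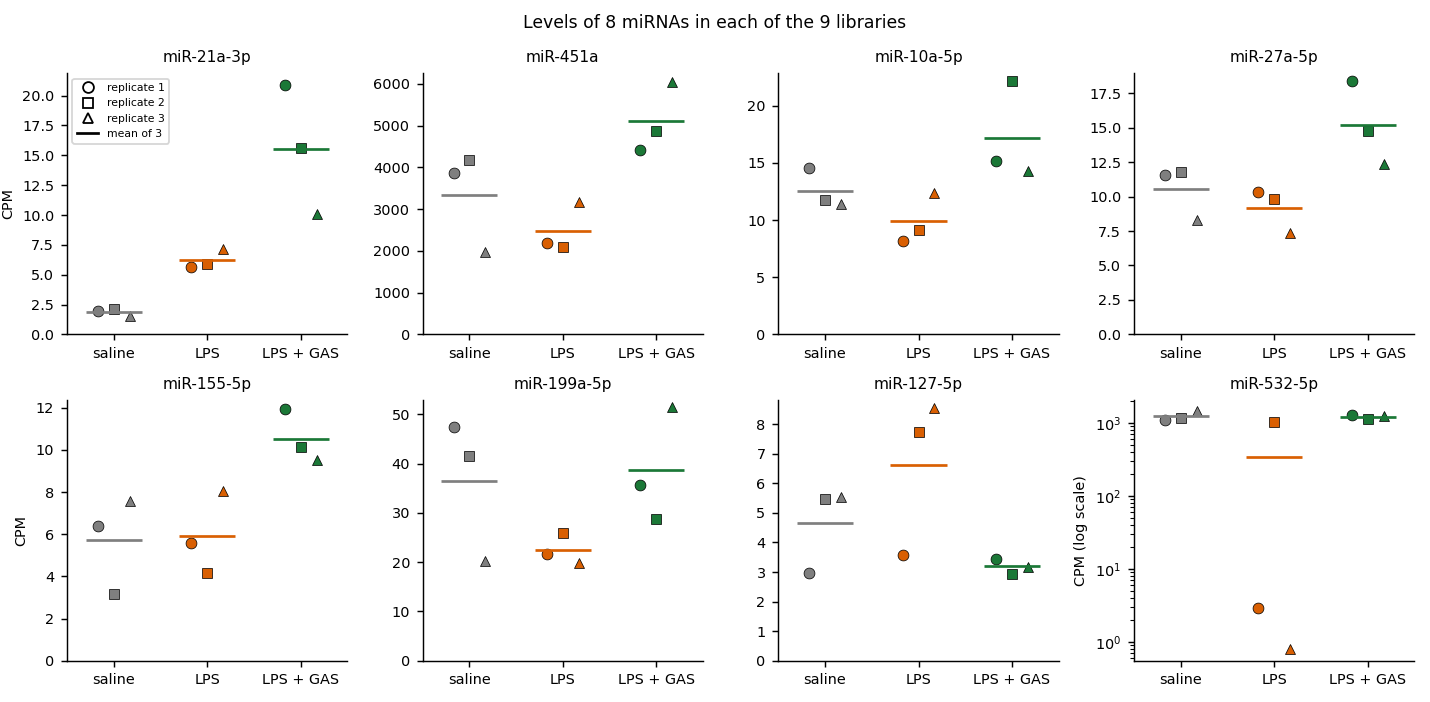
CPM of 8 miRNAs in each library of the 3 groups, with points shaped by replicate number and a line at the mean of 3; axes start at 0 except for miR-532-5p, which is on a log axis. MiR-21a-3p is ordered saline, LPS, LPS + GAS without overlap, miR-127-5p is lower in all LPS + GAS libraries than in any LPS library, and miR-532-5p is low in LPS replicates 1 and 3 only.

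Neuronal miRNAs differed little between the groups. Of the 12 neuronal miRNAs, 6 of 12 were above 0, the median was -0.02 and the range was -0.25 to 0.11. MiR-124-3p, which represses non-neuronal genes in neurons, was at 71606, 65423 and 80516 CPM and 59143, 81557 and 65030.5 CPM, with -0.081 ± 0.21 (SE). MiR-9-5p gave 0.033 and miR-9-3p 0.11. Only miR-218-5p of this list had no overlap, at 22108, 19309 and 20668 CPM with LPS and 18191, 16261 and 17691 CPM with LPS + GAS, with -0.25 ± 0.15 (SE). MiR-132 and miR-212, which CREB induces in active neurons, were above 0 in 1 of 4 arms, with a median of -0.17 and -0.59 for miR-212-5p.

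Oligodendrocyte miRNAs were above 0 in 4 of 4 members, with a median of 0.42, but all overlapped. MiR-219a-2-3p and miR-338-3p, both needed for oligodendrocyte maturation, were at 2049.9, 982 and 2764 CPM and 786, 400.3 and 729.8 CPM with LPS, with LPS replicate 2 the lowest, and at 3252, 2597 and 1732 CPM and 1056, 945 and 632 CPM with LPS + GAS. Without LPS replicate 2 the median of the list was 0.16. MiR-3065-5p, which is not in that list, at 2.39, 2.08 and 2.72 CPM and 4.01, 4.05 and 3.66 CPM, did not overlap and had 0.71.

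MiR-7b-3p stood out in the miR-7 list by its small spread. It was at 45.7, 46.8 and 44.5 CPM with saline, 58.6, 70.7 and 56.2 CPM with LPS and 80.8, 85.0 and 80.1 CPM with LPS + GAS, and no library of one group overlapped another. The log2 fold change was 0.41 ± 0.16 (SE) for LPS + GAS over LPS, with an adjusted p of 0.903 in edgeR, and 0.44 for LPS over saline. The abundant arm miR-7b-5p gave -0.07 and miR-7a-5p -0.26, both with overlap.

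The imprinted Dlk1-Dio3 region of chromosome 12, whose miRNAs are made from the maternal chromosome and are abundant in neurons, held 13 of the 28 miRNAs that were lower without overlap. That was 13 of the 91 miRNAs tested in the region on either strand (14.3%), beside 15 of the other 537 (2.79%) and 4.46% of all 628. Of the 13, 6 were in its Rtl1-antisense list, 5 in its Mirg list and 2, miR-370-5p at -0.47 and miR-3071-3p at -0.29, in neither. The Rtl1-antisense list, named for the transcript of most of its members, had all 18 tested miRNAs below 0. The median log2 fold change was -0.28, and 6 (33.3%) were without overlap. Members share transcripts and precursors, so that these are not counts of independent miRNAs. The list summed to 27378, 29598 and 42982 CPM with saline, 31565, 41575.5 and 31478 CPM with LPS and 30540, 32724.5 and 27558 CPM with LPS + GAS, with overlap. MiR-127-5p had the largest difference of the 18. It was at 3.58, 7.73 and 8.55 CPM with LPS and 3.45, 2.93 and 3.18 CPM with LPS + GAS, with -1.05 ± 0.36 (SE) and an unadjusted p of 0.0153 by edgeR. LPS replicate 1 was only slightly above the LPS + GAS libraries. The abundant arm miR-127-3p, at 21401, 27464 and 21418 CPM and 20861, 22706 and 18425 CPM, gave -0.18 ± 0.20 (SE) with overlap.

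Other members without overlap were miR-337-5p at -0.25, miR-431-3p at -0.41, miR-540-3p at -0.36, miR-540-5p at -0.28 and miR-493-3p at -0.42. MiR-337-5p was at 389, 407 and 379 CPM with LPS and 340.5, 329.5 and 320.5 CPM with LPS + GAS. Without LPS replicate 2, 3 of 18 members were above 0 and the median was -0.24. With any other single library left out, 0 of 18 were above 0. LPS over saline gave a median of 0.011 for these miRNAs and LPS + GAS over saline -0.26.

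Downstream, the Mirg cluster had 43 of 58 tested members below 0, a median of -0.16 and 5 (8.62%) lower without overlap, against 4.46% of all miRNAs, with 0 higher. MiR-541-3p was at 20.1, 24.6 and 23.2 CPM with LPS and 13.3, 11.8 and 17.5 CPM with LPS + GAS, with -0.67 ± 0.27 (SE) and an unadjusted p of 0.0347 by edgeR. MiR-495-3p, at 399, 425 and 609 CPM and 304, 344 and 381 CPM, had -0.48, miR-377-3p -0.58, miR-329-3p -0.31 and miR-154-5p -0.24. The abundant members miR-376a-3p, miR-411-5p, miR-379-5p and miR-369-5p gave 0.08, -0.07, -0.088 and -0.24, with overlap. Without LPS replicate 2 the median was -0.039. Grouped by position alone, precursors less than 10 kb apart, 21 of 22 miRNAs at chr12:109563692-109595388 were below 0 (median -0.28), 5 of 5 at chr12:109611500-109618336 (median -0.40) and 40 of 55 at chr12:109709060-109747960 (median -0.16).

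Several clusters and families leaned to one side by small amounts. The miR-17-92 cluster and its paralogues, which promote proliferation, were above 0 in 13 of 14 members with a median of 0.25. MiR-20b-5p among them was at 1.99, 0.997 and 1.41 CPM and 5.69, 1.21 and 4.24 CPM, a log2 fold change of 1.35 ± 0.59 (SE) with overlap, and miR-19b-3p had 0.26 without. The miR-15 and miR-16 family had 7 of 8 above 0 with a median of 0.22, and miR-15b-5p, at 32.2, 31.7 and 42.2 CPM and 47.3, 46.9 and 55.4 CPM, did not overlap. MiR-27a-5p, of the miR-23a cluster on chromosome 8, was at 10.4, 9.80 and 7.34 CPM with LPS and 18.4, 14.8 and 12.3 CPM with LPS + GAS, with 0.73 ± 0.25 (SE), whereas the abundant miR-27a-3p gave 0.13.

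By shared seed, the 6 miRNAs with the miR-30 seed were all below 0 with a median of -0.17 and none without overlap, and those of miR-148 and miR-152 were below 0 in 3 of 3 with a median of -0.30. The 10 miRNAs of the let-7 seed were evenly divided, 5 above and 5 below, with a median of 0.020. Let-7c-5p was at 93617, 61767 and 89435 CPM with LPS and 80534, 82596 and 89448 CPM with LPS + GAS. The miR-29 family gave a median of 0.022 and the miR-181 seed 4 of 4 above 0 with a median of 0.075. The miR-99, miR-100 and miR-125 list was above 0 in 7 of 11 members with a median of 0.048, and miR-99a-3p, at 16.7, 17.5 and 16.8 CPM and 22.1, 19.3 and 17.9 CPM, was without overlap at 0.22. The miR-322 to miR-450 cluster had 5 of 8 above 0 (median 0.08), the miR-135 family 2 of 4 (median 0.056) and miR-221 with miR-222 0 of 3 (median -0.095), all with overlap.

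**Figure D5:**
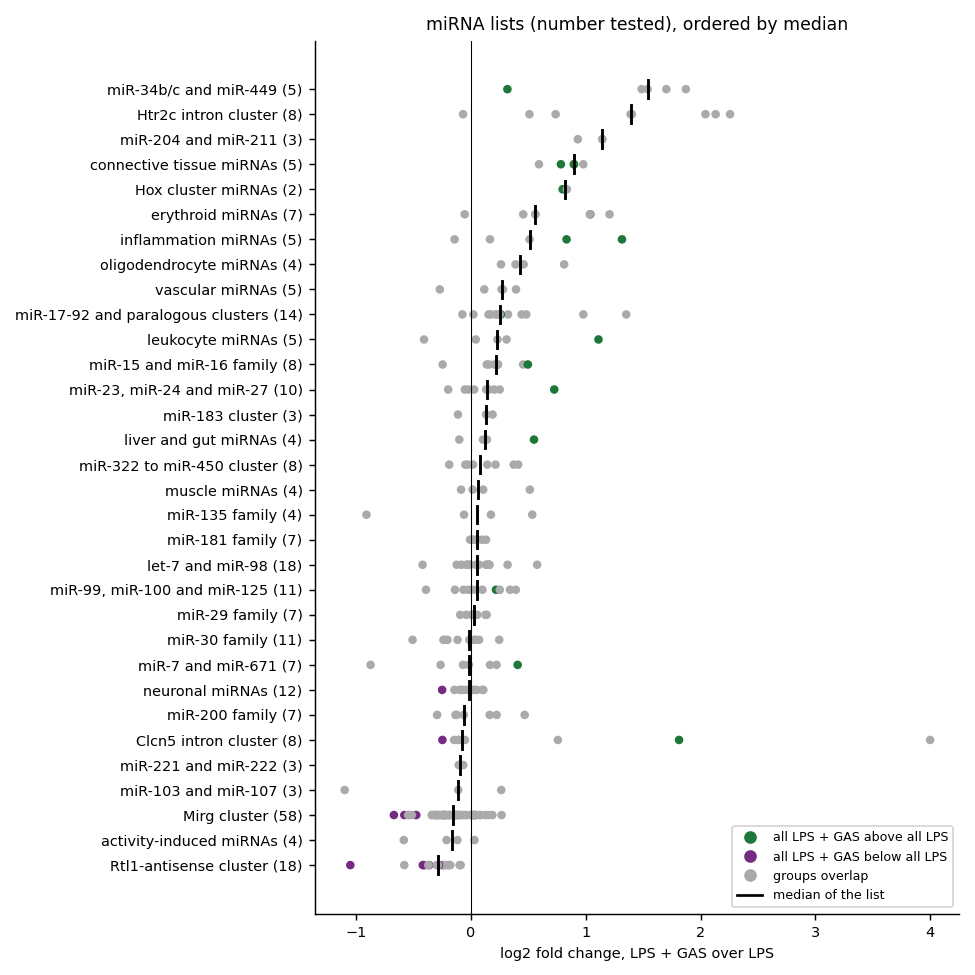
Log2 fold changes of LPS + GAS over LPS for the tested members of 32 lists, 1 point per miRNA, with the number tested in brackets and a black bar at the median; green points had all LPS + GAS libraries above all LPS libraries and purple points all below. Lists of ciliated cells and choroid plexus are at the top with few green points, and the Rtl1-antisense list at the bottom lies wholly below 0.

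Of 188 precursors with both arms tested, 110 had the same sign for both, and the median difference between arms was 0.20 in log2 fold change. The arms differed by at least 1 in 10 precursors. MiR-551b was one of these: its 3p arm was at 23.5, 74.1 and 99.4 CPM with LPS and 21.5, 32.7 and 17.4 CPM with LPS + GAS, with -1.46 ± 0.54 (SE) and an unadjusted p of 0.0228 by edgeR, while the 5p arm gave 0.22. LPS replicate 1 overlapped the LPS + GAS libraries. MiR-339-5p, at 5.67, 11.6 and 16.0 CPM and 8.12, 4.45 and 3.37 CPM, gave -1.06 and miR-339-3p -0.0081. MiR-1247-5p, at 47.9, 87.4 and 9.86 CPM and 20.6, 7.49 and 41.8 CPM, gave -1.05 ± 0.85 (SE) with wide overlap, and -1.78 to -0.30 when a library was left out.

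A few further single miRNAs had the lowest unadjusted p values without overlap. MiR-151-3p was at 95.5, 134 and 185 CPM with LPS and 92.6, 81.5 and 66.9 CPM with LPS + GAS, with -0.78 ± 0.28 (SE). MiR-193b-5p gave 1.05, at 1 to 4 CPM. MiR-702-3p and miR-12200-3p, lower at -0.65 and -0.96, were below 7 CPM in each of the 6 libraries. The adjusted p of each was 0.903 by edgeR.

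The 6 miRNAs that the study singled out were checked last, because single libraries carry several of them. MiR-107-3p and miR-103-3p are near-identical and share the seed GCAGCAU, so that their reads may be split between them.
miR-107-3p: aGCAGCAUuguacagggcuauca
miR-103-3p: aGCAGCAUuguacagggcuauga
MiR-107-3p (chr19:34820700-34820722, minus strand, in an intron of Pank1) had 32, 87 and 308 reads with LPS, 76, 61 and 62 with LPS + GAS and 60, 45 and 59 with saline. LPS replicate 3 was above every other library, and LPS replicate 1 below all. The log2 fold change was -1.10 ± 0.65 (SE), with an adjusted p of 0.903 by edgeR, and it turned to 0.29 without LPS replicate 3. MiR-107-5p gave -0.11, and miR-103-3p, at 324, 611 and 758 CPM and 612, 709 and 711 CPM, gave 0.26.

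MiR-532-5p, of the cluster in introns of Clcn5 on chromosome X, had 29, 12498 and 8 reads with LPS, 13660, 11361 and 12848 with LPS + GAS and 11440, 13444 and 14360 with saline. LPS replicate 2 was close to the other groups in reads, and replicates 1 and 3 were nearly empty. In CPM, with a TMM factor of 1.19 for LPS replicate 2, all LPS + GAS libraries lay above all LPS libraries. The log2 fold change was 1.81 ± 1.69 (SE). Leaving out LPS replicate 2 gave 9.38, with an adjusted p of 4.58e-05 by edgeR, the single call in any fit of LPS + GAS against LPS. The other 6 tested members of the cluster, miR-532-3p aside, summed to 175, 144 and 182 CPM with LPS and to 173, 108 and 177 CPM with LPS + GAS, so that they did not share the gap. Among them miR-362-5p, at 4 to 7 CPM, was lower without overlap at -0.25. MiR-532-3p had 3, 0 and 3 reads with LPS, 2, 0 and 98 with LPS + GAS and 170, 225 and 2 with saline, with 4.0 ± 2.06 (SE), the largest value of the table. MiR-297c-5p had 3, 909 and 408 reads and 589, 3 and 0 reads in the LPS and LPS + GAS groups, present in some libraries of each and near 0 in the rest, with -1.08 ± 2.27 (SE) and a range of -7.93 to -0.17 when a library was left out. MiR-297a-5p and miR-297b-5p gave -0.084 and 0.038. The study names miR-297-5p without a letter, so that its match to miR-297c-5p is an assumption. MiR-6395 did not pass the filter, with 1, 0 and 0 reads after LPS and 0, 31 and 0 after LPS + GAS. The cause of these gaps between libraries of a group was not tested.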

How the data were processed

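Small RNA of hippocampus was sequenced by the authors on a BGISEQ-500 platform, with 3 libraries in each of the saline, LPS and LPS + GAS groups. The deposited table holds unnormalized read counts that the authors obtained for 1448 mature miRNAs, and a further whole number per library, exp. The exp value exceeded the read count in 0 rows and served only as an alternative. GRCm38.p6 is named in the submitters' processing notes, and the sources used here do not name the aligner or the miRBase release. Columns with the authors' averages and their own comparisons (log2 fold changes and DESeq2 p-values) were not used, and 0 columns with values per library belonged to no mapped sample.

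The read counts were taken into edgeR 4.0.16 (R 4.3.3). A miRNA was tested if 3 or more of the 9 libraries had 10 reads or more, which left 628. After TMM normalization, glmQLFit was run on all 9 libraries with group means, and glmQLFTest gave each contrast, adjusted by Benjamini-Hochberg over all 628. Calls needed an adjusted p up to 0.05 and a log2 fold change of 1 or more in either direction. Errors of log2 fold changes are approximate standard errors, the absolute log2 fold change divided by the square root of the quasi-likelihood F statistic. The 95% intervals were built from these errors. With 10119758 to 11457656 reads per library, 10 reads are about 1 CPM. Lists of miRNAs have no test: members above 0, members without overlap between groups and medians are given beside those of all miRNAs. The fits were first checked on simulated counts.

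The miRNAs and lists were chosen with earlier results of these data known. Those named are the called miRNAs, the 15 with the lowest p among those without overlap, those beyond a log2 fold change of 1 in either direction with a mean of at least 10 CPM, up to 4 abundant members and all members without overlap of each list, and the 6 names of the study. The abundant members of lists with medians near 0 are mostly given by counts and medians only, and other names were chosen after their values were seen. Alternatives were DESeq2 1.42.0 size factors and Wald test, voom of limma 3.58.1, no filter and 50 reads in 3 libraries, the 6 libraries alone, exp values, the replicate number as a block, each library left out in turn and other thresholds. Mature sequences and positions are from RefSeq on GRCm38.p6, where 495 of 628 miRNAs had an entry of the same name, and host genes are from GENCODE.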

Additional observations from a re-analysis of the deposited data

How the results depend on the processing

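No miRNA was called between LPS + GAS and LPS under any alternative that kept the adjusted p, except that 1 was called without LPS replicate 2 (miR-532-5p, log2 fold change 9.38), so that the fits with a library left out gave 0 to 1. At an unadjusted threshold of 0.05, 23 passed. The fit of the 6 libraries alone, without saline, called 0, with a lowest adjusted p of 0.983 by edgeR. With the replicate number as a replicate block 0 were called and 25 had an unadjusted p under 0.05, against 23. Under the block the unadjusted p was 0.00225 for miR-204-5p and 0.00608 for miR-34b-5p, against 0.0852 and 0.0565, with adjusted p of 0.530 and 0.826 by edgeR. Whether the numbers pair libraries differed by comparison. Deviations of same-numbered libraries correlated at -0.11, 0.047 and -0.27 between LPS + GAS and LPS, at 0.32, 0.21 and -0.28 between LPS and saline, and at 0.30, 0.33 and 0.37 between LPS + GAS and saline, each over miRNAs, and the labels give no shared batch. For libraries of different number the ranges were -0.33 to 0.50, -0.62 to 0.35 and -0.42 to 0.043, in the same order of comparisons. In LPS + GAS against saline 1 miRNA, miR-21a-3p, was also called with the replicate block (adjusted p 0.00897 by edgeR) and without each library in turn, both chosen after seeing the data. The direction of miR-764-5p turned to -0.032 without LPS + GAS replicate 1, that of miR-107-3p to 0.29 without LPS replicate 3, that of miR-142a-5p to -0.053 without LPS + GAS replicate 3, and that of miR-150-5p to below 0, at lowest -0.23, without LPS replicate 2, LPS + GAS replicate 1 or LPS + GAS replicate 2; the cause was not tested. The other 765 values, of 46 miRNAs recomputed, kept their direction. With no filter on low counts the median of the inflammation list was 0.35 and that of the Hox list 1.48, since more members entered.
With a library left out, log2 fold changes ran from -0.032 to 0.99 for miR-764-5p, from -1.57 to 0.29 for miR-107-3p, from -0.053 to 0.65 for miR-142a-5p and from -0.23 to 0.32 for miR-150-5p, and list medians from -0.80 to 0.84 for the miR-183 cluster, from 0.32 to 0.69 for inflammation and from 0.39 to 1.10 for connective tissue. Medians of lists with weaker leaning ran from -0.68 to 0.52 for miR-200, from -0.38 to 0.0018 for activity-induced miRNAs, from -0.27 to -0.039 for Mirg, from -0.13 to 0.23 for muscle, from 0.030 to 0.25 for liver and gut, from 0.16 to 0.65 for oligodendrocytes and from 0.50 to 1.18 for Hox miRNAs.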
